A study of Sus scrofa with 6 samples.

Results

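Transcripts of the cytosolic ribosomal proteins were examined in a primary culture of pig endometrial epithelium, the lining of the uterus, with and without seminal exosomes. The members were the rows of the expression table whose symbol begins with RPL or RPS and a digit, or is RPSA, with the RPS6K kinases left out. There were 64 such rows among 10915 genes with values, 35 with a large subunit symbol and 29 with a small subunit symbol. They carried 60 different symbols, since RPSA, RPS16, RPS21 and RPL36A each stood on 2 rows with different gene identifiers. Cells of both groups came from the uteri of slaughtered pigs, were grown on collagen and were sequenced at passage 3. The exosome group (3 libraries) was given vesicles at 10 µg per well for 48 h, obtained by precipitation from sperm-rich seminal fluid of boars. For the control group (3 libraries) the labels name no treatment and no vehicle. The labels do not say whether libraries of a group came from different uteri, wells or ejaculates, so the tests measure only the spread between these libraries.

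The ribosome translates messenger RNA into protein. Its small (40S) subunit reads the message, and its large (60S) subunit joins amino acids and lets the new chain out through a tunnel. Each ribosome holds a single copy of nearly every ribosomal protein, and their messages are among the most abundant in a growing cell. These messages begin with a terminal oligopyrimidine (TOP) tract, through which mTOR signalling sets how strongly they are translated. The level of such a message is therefore not a measure of how much protein is made from it.

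Of 80 proteins of the mammalian cytosolic ribosome, 56 had a member row, and 4 others had a row outside the rule, among them FAU, and RPLP1 and RPLP2, which stood under identifiers without a symbol. The remaining 20 were not analysed here. The rule also took 4 genes that are paralogs or no ribosomal proteins by symbol. RPL26L1 and RPS27L are close relatives of RPL26 and RPS27, RPL7L1 is an RPL7-like protein of large subunit assembly, and RPS19BP1 binds RPS19 and is no ribosomal protein. The sources used here do not settle which of the 2 rows of RPL36A is the core gene, and the abundant row could be a paralog.

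Values were taken as FPKM, fragment counts scaled to transcript length and library size, which can be compared between genes; the depth behind them is unknown. The level of a member was its mean over the 6 libraries, and the median of these levels was 1240 FPKM over the 64 members, against 15.0 over all genes tested. Large subunit rows had a median of 1085 and small subunit rows of 1320.1 FPKM. Of the 100 genes with the highest means in the table, 35 were members. The levels fell into 2 ranges with no member between them. In the upper range, 56 rows lay between 242.0 FPKM (RPS15) and 6042 FPKM (RPS20), a span of 25.0-fold. In the lower range, 8 rows lay between 1.55 and 81.4 FPKM, each under 10% of the members' median. The lower range was made of RPL26L1, RPL7L1, RPS19BP1, RPS27L, the second rows of RPSA, RPS16 and RPL36A, and RPL15, the 1 core protein whose single row was that low.

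**Figure D1:**
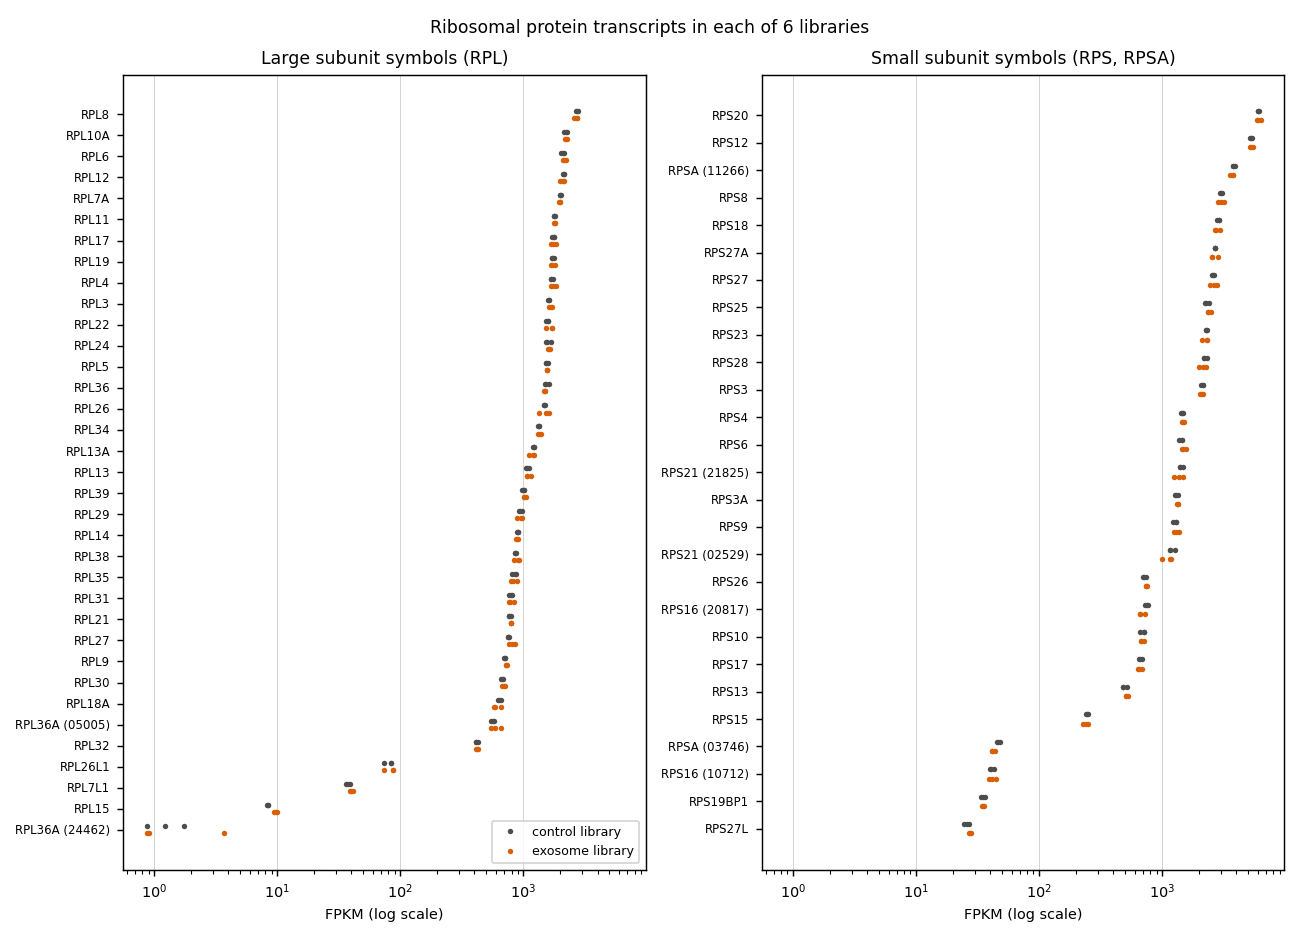
FPKM (log scale) of 62 members in the 6 libraries, with large subunit symbols on the left and small subunit symbols on the right, ordered by mean. Grey points are control and orange points exosome libraries, and the digits in brackets end the gene identifier where a symbol has 2 rows. The points of the 2 groups lie nearly on top of each other in the upper range, from RPS15 to RPS20, and 8 rows lie far below the rest.

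The most abundant member was RPS20 (ENSSSCG00000006249; chromosome 4, 75762209 to 75763449), a protein of the small subunit head. It was at 6097, 5984 and 6022 FPKM in the control libraries and at 5856, 5977 and 6316 in the exosome libraries. RPS12, of the small subunit beak, came next at 5389.8, 5268 and 5188 FPKM in controls and 5495, 5199 and 5259 in the exosome libraries. RPSA (ENSSSCG00000011266), the small subunit protein also known as the laminin receptor precursor, was at 3789.8, 3885 and 3732 against 3582, 3781 and 3786 FPKM. In each of these 3 genes the exosome values spread around or across the control values, and the groups overlapped. Among large subunit symbols RPL8, RPL10A and RPL6 were highest. RPL8 was at 2779, 2715 and 2686 FPKM in controls and 2555, 2737 and 2727 in the exosome libraries. RPL10A was at 2254, 2141 and 2209.7 against 2264, 2192 and 2233, and RPL6 at 2119, 2036 and 2102 against 2111, 2118 and 2209.9. Neither group stood above the other in these 3 genes either. In the order of levels, RPS20, RPS12 and RPSA were separated by more than their spread over libraries, whereas the values of RPL10A, RPL6 and RPL12 overlapped.

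No ribosomal protein gene passed the test of exosome treatment against control. The test was limma's moderated test on log2(FPKM + 1), with p-values adjusted by Benjamini-Hochberg across the 10846 rows fitted and called under 0.05; all 64 members had a mean of at least 1 FPKM and were tested. Over all genes 0 passed, which is 0% of them, and the smallest adjusted p of a member in limma was 0.302. At an unadjusted p under 0.05 there were 3 members (RPL15, the second row of RPSA, and the main row of RPS16), 1 higher and 2 lower. These are 4.69% of members, beside 12.6% of all genes tested (5.06% higher and 7.5% lower). The 3 exosome libraries lay wholly above or below the 3 controls in 6 members, 4 higher and 2 lower, or 9.38%, beside 18.7% of all genes (8.29% higher and 10.4% lower).

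Log2 changes, given as exosome minus control, had a median of 0.013 over the 64 members, with 40 above 0 and 24 below, beside a median of -0.0023 over all genes tested. Among the 56 rows of the upper range the changes ran from -0.12 (RPS16) to 0.096 (RPL27). The 95% confidence intervals of 55 of those 56 changes lay within -0.25 and 0.25. The exception was the row of RPS21 with the lower mean, whose interval reached down to -0.27. Over the upper range no interval reached below a decrease of 17.2% or above an increase of 17.8% in FPKM + 1. These limits hold only for FPKM as deposited, since other scalings move the changes. Rescaled to equal sums, the median log2 change was 0.069 over large and 0.052 over small subunit rows. With quantile normalization the main row of RPSA was at 0.15, outside its interval here of -0.13 to 0.068.

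**Figure D2:**
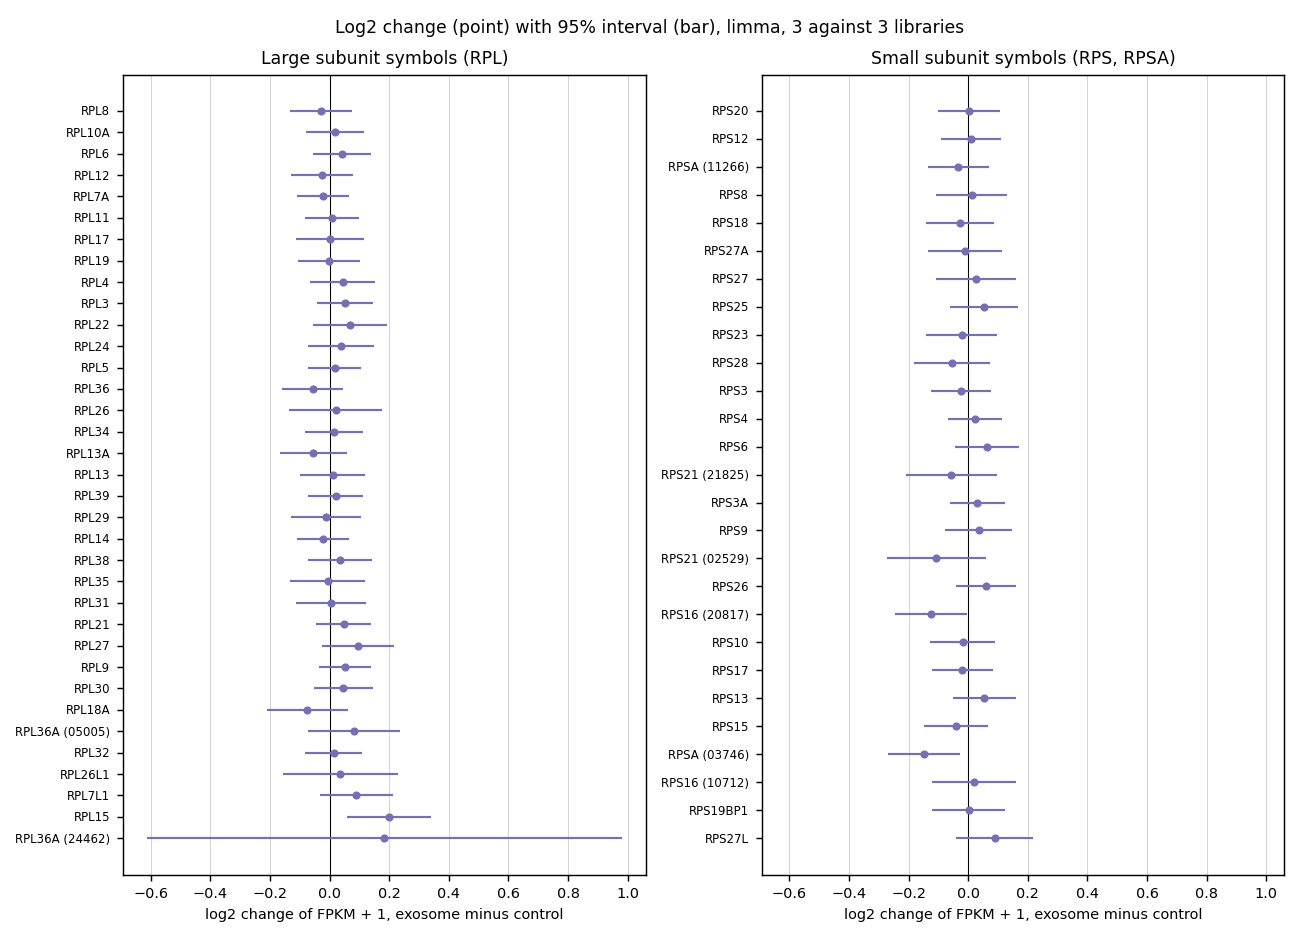
Log2 change of FPKM + 1, exosome minus control, for 62 members (points) with its 95% interval from limma (bars), in the order of mean level, large subunit symbols left and small subunit symbols right. Bars of the upper range are short and nearly all cross 0, while the second row of RPL36A, near 1 FPKM, has an interval from -0.61 to 0.98.

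The small subunit member with the smallest p among abundant rows was RPS16 (ENSSSCG00000020817), a head protein whose tail reaches the peptidyl site. It was at 722.9, 747.5 and 766.4 FPKM in the control libraries and at 666.2, 659.3 and 728.2 in the exosome libraries. Exosome replicates 1 and 2 lay under all controls, and exosome replicate 3 lay above the lowest of them. The log2 change was -0.12 with an SE of 0.052 (limma adjusted p = 0.388). The RPS21 row with the lower mean (ENSSSCG00000002529) was at 1163, 1273 and 1159 against 1005, 1157 and 1182 FPKM, a log2 change of -0.11 that was -0.033 without exosome replicate 1. RPS26, which lies at the exit of the message channel, was at 743.7, 711.1 and 693.0 against 741.4, 758.1 and 739.0 FPKM (log2 change 0.060). RPS16, RPS21 and RPS26 did not pass, and reads of the 2 rows of RPS21 and of RPS16 may have been shared between copies.

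The large subunit member with the smallest p among abundant rows was RPL27 (chromosome 12, 19892210 to 19894202). It was at 760.5, 754.5 and 750.8 FPKM in controls and at 807.3, 759.3 and 857.5 in the exosome libraries. Exosome replicate 2 lay just under the highest control and the other 2 exosome libraries above it. The log2 change was 0.096 with an SE of 0.052 (limma adjusted p = 0.489). RPL22, an RNA-binding protein near the tunnel exit, also had exosome replicate 2 lowest, here under all controls, at 1579, 1587 and 1531 FPKM in the control against 1703, 1529.5 and 1703. RPL9 was at 707.2, 699.0 and 703.3 against 727.6, 721.2 and 736.6 FPKM. RPL3, which lies close to the peptidyl transferase centre, was at 1613, 1596 and 1600.1 against 1661, 1619 and 1711 FPKM. In RPL9 and RPL3 all exosome values lay above all control values, but the log2 changes were 0.051 and 0.053 and the limma adjusted p-values 0.602 and 0.614. Of the other members without overlap, RPL21 was higher (log2 change 0.048) and RPL7A lower (-0.022); both were chosen after their values were seen.

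The members were then taken by their place in the ribosome, and the 1 member of these groups with an unadjusted p under 0.05, besides the second row of RPSA, was RPS16. RPL12, at the base of the stalk that recruits translation factors, had a log2 change of -0.025. RPL5 and RPL11, which enter the large subunit together with 5S ribosomal RNA and bind the p53 regulator MDM2, were at log2 changes of 0.018 and 0.0073. RPL5 was at 1569.9, 1516 and 1533 FPKM in controls and 1553, 1563 and 1559 in the exosome libraries. The 7 measured members at the tunnel exit (RPL17, RPL19, RPL22, RPL26, RPL31, RPL35 and RPL39) had a median log2 change of 0.0057 and a range from -0.0064 to 0.070. RPL26 varied most among exosome libraries, at 1522.5, 1349.9 and 1622 FPKM, against 1490.0, 1469 and 1460.3 in the control.

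In the small subunit, the 4 members of the message entry and beak (RPS3, RPS10, RPS12 and RPS27A) had a median log2 change of -0.015. RPS27A, which is made as a fusion with ubiquitin, was at 2669 FPKM in each of the 3 control libraries and at 2543, 2559.6 and 2855 in the exosome libraries. At the message exit and platform, RPS26 was at 0.060 and RPS28 at -0.053. The 5 rows of head proteins (RPS15, RPS18, RPS20 and both rows of RPS16) ran from -0.12 to 0.020. RPS6, the target of the S6 kinases, was at 1459, 1380.05 and 1442 FPKM in controls and at 1479, 1440.5 and 1553 in the exosome libraries (log2 change 0.063, limma adjusted p = 0.606).

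Rows of the lower range held 2 of the 3 members with an unadjusted p under 0.05. RPL15 (ENSSSCG00000028079), a core protein of the large subunit, was listed at 8.17, 8.33 and 8.35 FPKM in the control libraries and at 9.32, 9.86 and 9.79 in the exosome libraries. The groups did not overlap, and the log2 change was 0.20 with an SE of 0.061 (limma adjusted p = 0.302). The second row of RPSA (ENSSSCG00000003746) was at 45.3, 48.3 and 46.7 FPKM in controls and at 41.1, 43.7 and 41.4 in the exosome libraries, again without overlap (log2 change -0.15, limma adjusted p = 0.334). The main RPSA row, some of whose reads such a copy could take, had a log2 change of -0.033. The second row of RPS16 was at a log2 change of 0.020. The second row of RPL36A was near 1 FPKM, and its log2 change of 0.18 rested on exosome replicate 1 (3.68 FPKM, against 0.902 and 0.868 in the other 2 exosome libraries); it was -0.25 without that library. Counts in these rows are uncertain, because ribosomal protein genes have many near-identical processed copies in mammalian genomes and no source used here says how reads shared by copies were assigned.

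The paralogs and the gene that is no ribosomal protein did not pass either. RPS27L, known as a target of p53, was at 26.8, 25.9 and 24.6 FPKM in controls and 28.2, 27.5 and 26.8 in the exosome libraries. RPL7L1 was at 38.7, 37.7 and 35.9 against 41.0, 40.03 and 38.7 FPKM. In both genes a single control value lay within or at the edge of the exosome range, and their log2 changes were 0.088 and 0.090 (limma adjusted p = 0.540 and 0.524). RPL26L1 (log2 change 0.037) and RPS19BP1 (0.0018) were at 81.4 and 34.9 FPKM over all libraries.

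The large and small subunit were then compared within the exosome response. The 35 large subunit rows had a median log2 change of 0.018, with 25 above and 10 below 0, and the 29 small subunit rows a median of 0.0018, with 15 above and 14 below. The large subunit median was 0.0067 without control replicate 2 and 0.032 without control replicate 1. The small subunit median was -0.030 without exosome replicate 3. With all libraries, the small subunit median of 0.0018 was the value of RPS19BP1, which is no ribosomal protein. Over the upper range alone, the 31 large subunit rows had a median of 0.014 (21 above 0, 10 below). The 25 small subunit rows there had a median of -0.011 (12 above, 13 below). When each gene was set relative to its control mean, the median over large subunit rows was 0.024, -0.016 and -0.0074 in the control libraries and 0.013, 0.0059 and 0.047 in the exosome libraries. The median over small subunit rows was 0.020, -0.0091 and -0.014 in controls and -0.046, -0.0076 and 0.030 in the exosome libraries. Both medians were highest in exosome replicate 3, and the groups overlapped for each. In exosome replicate 1 the small subunit median was the lowest of the 6 libraries and the large subunit median was above 0. The difference of the large from the small subunit median was 0.0035, -0.0064 and 0.0066 in the control libraries and 0.059, 0.013 and 0.017 in the exosome libraries. The exosome libraries all lay above the controls on this measure, with exosome replicate 1 far above the other 2. Over the upper range alone, the large and small subunit medians were 0.043 and 0.033 in exosome replicate 3. They were -0.0074 and -0.016 in control replicate 3, so these 2 libraries were nearly level on this measure there. Over all member rows the mean difference between groups was 0.029, and it was 0.014 without exosome replicate 1 and 0.0039 with quantile normalization. No p is given for these medians, since they are scores over chosen members. The ratio of summed large to summed small subunit FPKM overlapped between groups, at 0.850, 0.837 and 0.849 in controls and 0.868, 0.849 and 0.846 in the exosome libraries. The large sum leaves out RPLP1 and RPLP2, and the small sum FAU, which stood outside the rule. RPLP1 averaged 4776 FPKM in controls and 4322 with exosomes, RPLP2 1933 and 1850, and FAU 1388 and 1399. With RPLP1, RPLP2 and FAU added to the sums, the mean ratio was slightly lower with exosomes than in controls, and the groups still overlapped. Over the members alone the mean ratio was higher with exosomes (0.854 against 0.845), so its direction depends on which rows are counted.

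**Figure D3:**
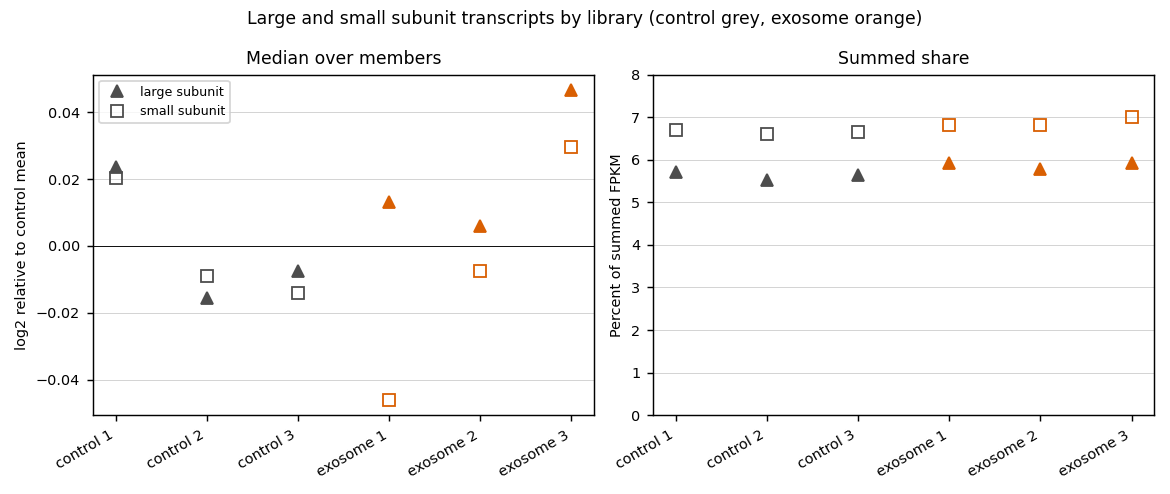
Left, median over large (triangles) and small (squares) subunit rows of log2(FPKM + 1) relative to the control mean of each gene, by library; right, their summed FPKM as a percent of all FPKM. Control libraries are grey and exosome libraries orange. The 2 subunits lie close together in each library except exosome replicate 1, where they are 0.059 apart, and both shares are slightly higher in the exosome libraries.

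Summed over the 64 rows, ribosomal protein transcripts made up 12.3% ± 0.138 (SD, n = 3) of all FPKM in controls, against 12.8% ± 0.167 (SD, n = 3) with exosomes. The 3 exosome shares (12.7, 12.6 and 12.9%) lay above the 3 control shares (12.4, 12.1 and 12.3%). The summed FPKM of the members itself came to 89484 ± 1103 in controls against 89727 ± 2079 with exosomes (SD, n = 3), and overlapped. RPLP1, RPLP2 and FAU, outside the rule, are not in the sum over members. The sum over all genes of the table, by which the share is divided, was 728438 ± 6269.9 and 703263 ± 11360 (SD, n = 3). The 12 mitochondrially encoded transcripts, whose levels are included in that sum, had a median log2 change of -0.34. In 11 of these 12 the exosome libraries lay below all controls, beside 10.4% of all genes tested. The part of these transcripts in the share was not tested.

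With the libraries rescaled to equal sums, the median log2 change was 0.069 for the large and 0.052 for the small subunit, while that of all genes tested was 0.045. On that scale 55 of the 64 changes were above 0. An unadjusted p under 0.05 was found for 12 of the 64 members, all higher, beside 13.9% of all genes tested in either direction. RPL27, RPL9, RPL3, RPS26 and RPS6 were among those 12, and the main rows of RPS16 and RPSA were not. With quantile normalization 12 were higher and 2 lower at that p, beside 12.5% of all genes tested. No member passed the adjusted threshold on any of these scales.

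Ribosomal protein transcripts varied little between libraries of a group. The median coefficient of variation of a member was 2.15% among controls and 3.83% among exosome libraries, beside 5.30% and 7.67% over all genes tested. The 469 other genes averaging 200 FPKM or more, which are nearer in level, had medians of 3.07% and 5.55%. Among those other abundant genes 23.0% had an unadjusted p under 0.05 (18 higher, 90 lower), against 1 of the 56 abundant member rows. The coefficient of variation was larger in the exosome group in 49 of the 64 members (76.6%), and in 66.7% of all genes. Exosome replicate 3 held the highest value in 23 members and exosome replicate 1 the lowest in 22, among them 14 of the 29 small subunit rows. The same count was not made over all genes tested, so it cannot be called a trait of the members.

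**Figure D4:**
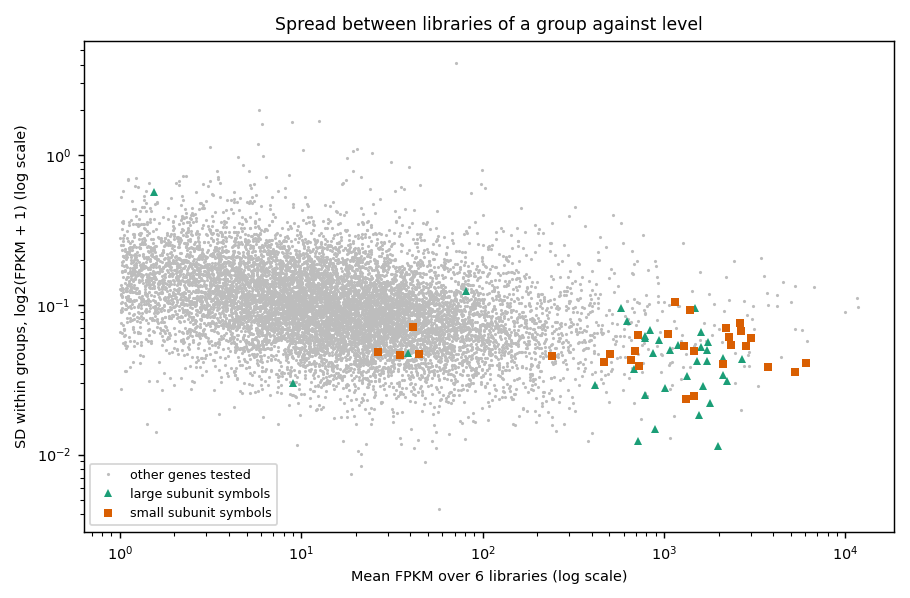
SD within groups of log2(FPKM + 1) against mean FPKM (both axes log scale) for all genes tested (grey), large subunit symbols (green triangles) and small subunit symbols (orange squares). Nearly all members sit at the right, where values are high, at an SD mostly under 0.1, and the second row of RPL36A is the member at the upper left.

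Some ribosomal genes stood outside the symbol rule. RPLP1, a stalk protein, was at 4829, 4719.9 and 4779 FPKM in controls and at 3718, 4333 and 4913 in the exosome libraries, a wide spread with exosome replicate 1 lowest (log2 change -0.15, limma adjusted p = 0.529). RPLP2, its partner in the stalk, was at a log2 change of -0.065. FAU, a small subunit protein made as a fusion with a ubiquitin-like protein, was at 0.011. RPLP1, RPLP2 and FAU did not pass.

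**Figure D5:**
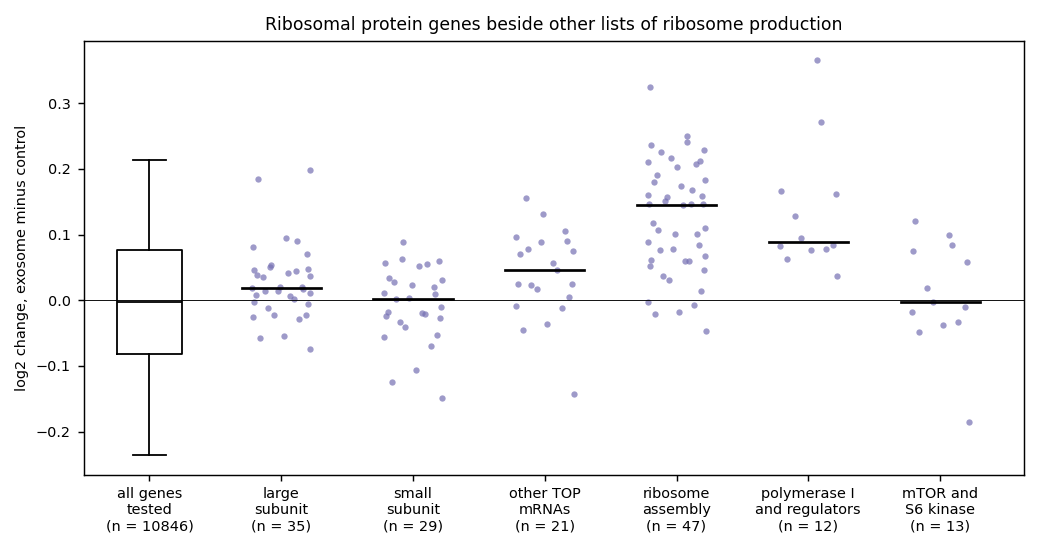
Log2 change, exosome minus control, of each gene (points) and the median (bar) of the large and small subunit rows and of 4 other lists, beside a box of all genes tested (median, quartiles, whiskers at the 5th and 95th percentile). The ribosomal protein rows gather around 0, while nearly all ribosome assembly genes lie above 0.

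Other messages with a TOP tract, which encode translation factors and related proteins, had a median log2 change of 0.047 over 21 genes, 16 of them above 0. In limma 0 passed, and an unadjusted p under 0.05 was found for 2 (9.52%) that were higher and 0 that were lower. Over all genes tested 5.06% were higher and 7.5% lower at such a p. NPM1, a nucleolar chaperone, was at 1928, 1927 and 1832 FPKM in controls and at 2240.3, 1986 and 2118 in the exosome libraries (log2 change 0.16, limma adjusted p = 0.334). NAP1L1, a histone chaperone, and IPO7, an importin that carries ribosomal proteins into the nucleus, were at log2 changes of 0.13 and 0.10. In these 3 genes, named for having the smallest p of the list, all exosome values lay above all control values. Over the list that held for 5 of 21 genes (23.8%), beside 8.29% of all genes tested. The count of 2 at an unadjusted p under 0.05 was 9 after rescaling to equal sums and 0 without control replicate 3 or exosome replicate 1. The share of all genes with such a p, in either direction, was 13.9%, 8.18% and 7.39% in these 3 fits.

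Genes of ribosome assembly, the nucleolar and nuclear factors that fold and trim ribosomal RNA and load the ribosomal proteins, had mostly positive changes in the exosome libraries. Their median log2 change was 0.14 over 47 genes, 42 of them above 0. At an unadjusted p under 0.05 there were 17 higher (36.2%, beside 5.06% of all genes) and 0 lower, while 0 passed the adjusted threshold in limma. This list, like the other lists here, was chosen with earlier results of these data known, so its shares are a description and not a test. DDX10, an RNA helicase of small subunit assembly, was at 9.09, 7.85 and 8.73 FPKM in controls and at 11.01, 10.7 and 11.2 in the exosome libraries (log2 change 0.32, limma adjusted p = 0.234). NOP58, a core protein of the particles that methylate ribosomal RNA, was at 80.4, 81.2 and 80.4 against 99.6, 90.8 and 91.6 FPKM (log2 change 0.22, limma adjusted p = 0.234). WDR12, a large subunit assembly factor, was at 23.8, 23.1 and 22.7 against 28.96, 25.9 and 27.3 FPKM (log2 change 0.23, limma adjusted p = 0.249). The exosome libraries lay above all controls in each of these 3 genes, which were named for having the smallest p of the list. Over the list 36.2% of genes lay wholly above the controls, beside 8.29% of all genes tested. The median over the list relative to the control mean was 0.032, 0.0057 and -0.040 in controls and 0.19, 0.033 and 0.14 in the exosome libraries, so exosome replicate 2 stood next to the controls. The count of 17 was 7 without exosome replicate 1, 11 without exosome replicate 3, 8 without control replicate 2 and 10 without control replicate 3, where the median was 0.094. The share of all genes with such a p, in either direction, was 7.39%, 12.1%, 7.39% and 8.18% in these fits, in that order. It was 12.6% with all libraries. Without exosome replicate 2 the count of assembly genes was 25, where 22.0% of all genes had such a p. In that fit 297 of 10841 genes passed the adjusted threshold, 2 of them assembly genes (MRTO4 and GNL3, both chosen after their values were seen).

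RNA polymerase I, which transcribes the large ribosomal RNA precursor, and its regulators had a median log2 change of 0.089 over 12 genes, all above 0. An unadjusted p under 0.05 was found for 3 of them (25%), all higher, beside 5.06% of all genes that were higher at such a p. In limma 0 passed the adjusted threshold. TCOF1, a nucleolar cofactor of this transcription, was at 13.7, 12.3 and 11.6 FPKM in controls and 17.7, 16.3 and 15.4 in the exosome libraries (log2 change 0.37, limma adjusted p = 0.234). TAF1A, a subunit of the promoter factor, and POLR1B, a catalytic subunit, were at log2 changes of 0.27 and 0.17. The list median was 0.058 without exosome replicate 1 and 0.14 without exosome replicate 2.

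Genes of mTOR and S6 kinase signalling had a median log2 change of -0.0031 over 13 genes, 6 above and 7 below 0. None passed, with 0 at an unadjusted p under 0.05 in limma as well. MLST8, a subunit of the mTOR complexes, was at 5.50, 5.21 and 5.08 FPKM in controls and 3.99, 4.995 and 4.59 in the exosome libraries, all below the controls (log2 change -0.19). LARP1, which binds TOP messages, and its relative LARP4 were at log2 changes of 0.10 and 0.12.

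Markers of epithelium were abundant in both groups, with KRT8 at 3037 and 2800.2 FPKM and EPCAM, listed as TACSTD1, at 345.8 and 357.9 in the control and exosome libraries. The summed level of the 7 measured epithelial markers was 9475 to 9807 FPKM in controls and 8275 to 9190.2 in the exosome libraries. A negative log2 change was found in 6 of the 7, beside 5508 of the 10846 genes tested, and the changes ran from -0.43 to 0.049. The exosome libraries lay wholly below the controls in 4 of the 7, beside 10.4% of all genes tested. The 5 measured stromal markers (VIM, CD90, COL1A1, COL1A2 and COL3A1) summed to 2788 to 3042 and 2274 to 2494 FPKM, and all 5 changes were negative. Most of that sum was CD90, which averaged 2328 FPKM in controls and 1849 in the exosome libraries (log2 change -0.33, limma adjusted p = 0.134). VIM is also among the TOP messages. Leukocyte markers (CD68, CD14 and LYZ) summed to 9.72 to 11.7 and 9.01 to 11.9 FPKM, and the 1 measured endothelial marker, KDR, was at 1.26 to 1.96 and 0.968 to 1.16. Of 5 markers of the male germ line, which seminal material could carry, 0 were matched to a row. Fewer cells of a type and less RNA per cell cannot be told apart in these bulk samples, and the part of these markers in the values of the ribosomal and assembly genes was not tested.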

How the data were processed

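The kit was stranded and for mRNA, per the labels' protocols. The tools were bcl2fastq 1.8.4, TopHat and Cufflinks on Sscrofa11.1, per the submitters' processing notes; for other versions, the annotation, strand use and filters: not given in the sources used here. FPKM was taken as the unit the authors deposited, from the tool named and the values, since no header states one. Depth is unknown, no value is 0 (lowest 0.0882), and 1 row without values was left out.

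Groups came from the titles. Values were used as log2(FPKM + 1), which understates changes of low genes. Genes averaging 1 FPKM or more were tested (69 left out) with limma 3.58.1 in R 4.3.3, with an intensity trend and no covariate, Benjamini-Hochberg adjusted over all genes. The scripts were checked on simulated data. Medians and shares over members have no test. Named genes were members with the smallest p, the highest and lowest means, paralogs, those of set roles, and the 3 smallest p of each other list. Members and lists were chosen with earlier results of these data known. Lists were matched by symbol, and rows without one through the reference gene names (10 list rows). Locations are RefSeq's for Sscrofa11.1, by symbol, and were found for 56 rows on 15 chromosomes. No sequences are shown, and some genes are not reported here by name, though counts and medians include them. Alternatives were other scalings, pseudocounts, filters, a variance model, a block and libraries left out. Figures used Python 3.11.15 and matplotlib 3.10.9.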

Additional observations from a re-analysis of the deposited data

How the results depend on the processing

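No ribosomal protein gene passed the adjusted threshold under any alternative run, and the smallest adjusted p of a member in limma ran from 0.113 without exosome replicate 2 to 0.811 without replicate 1 of both groups. Genes passing over the whole table numbered 0 to 297 with libraries left out, the highest without exosome replicate 2. Members with an unadjusted p under 0.05 (3) were 14 with quantile normalization, 12 rescaled to equal sums, 5 rescaled to the sum without ribosomal and mitochondrial transcripts, 1 among the rows of the upper range only (an alternative chosen after seeing the data), and 1 to 7 with libraries left out. The share of all genes with such a p was 12.5%, 13.9% and 13.1% under those 3 scalings and ran from 5.95% (without replicate 1 of both groups) to 22.0% (without exosome replicate 2). The large and small subunit medians were 0.055 and 0.051 with quantile normalization, 0.069 and 0.052 rescaled to equal sums, and 0.057 and 0.040 rescaled without ribosomal and mitochondrial transcripts. With libraries left out the large subunit median ran from 0.0067 to 0.034, the small subunit median from -0.030 to 0.019, and the difference of the subunits from 0.0088 to 0.039; it was 0.0039 with quantile normalization. Other TOP messages higher at an unadjusted p under 0.05 (2) were 5, 9 and 8 under those 3 scalings, 1 without the intensity trend and 0 to 4 with libraries left out. The corresponding count of ribosome assembly genes (17) ran from 6 to 25, its passing genes from 0 to 2, and the count of higher mTOR genes from 0 to 1. The cause of these differences was not tested.

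Of 898 values of named genes under the alternatives, 808 kept their sign and none crossed the threshold. With median scaling RPL19 became 0.0038. With quantile normalization the log2 changes turned positive in RPL8 (0.055), the main row of RPSA (0.15), RPS28 (0.041), RPS18 (0.081), RPL12 (0.039), RPS3 (0.043), RPS10 (0.0012), RPS27A (0.075), RPL35 (0.0040) and RPL19 (0.020). Rescaled to equal sums, so did RPL8 (0.022), RPSA (0.018), RPS15 (0.0095), RPS18 (0.024), RPL12 (0.026), RPS3 (0.027), RPS10 (0.032), RPS27A (0.040), RPL35 (0.044) and RPL19 (0.049). Rescaled without ribosomal and mitochondrial transcripts, so did RPL8, RPSA, RPS18, RPL12, RPS3, RPS10, RPS27A, RPL35 and RPL19 (0.010, 0.0060, 0.012, 0.014, 0.015, 0.021, 0.028, 0.033 and 0.037). With libraries left out the sign changed in 23 genes. The ranges were -0.051 to 0.015 (RPS10), -0.048 to 0.028 (RPL35), -0.036 to 0.025 (RPL19), -0.0018 to 0.035 (RPL10A), -0.030 to 0.034 (RPS20), -0.027 to 0.035 (RPS19BP1), -0.037 to 0.046 (RPL17), -0.057 to 0.041 (RPL31), -0.014 to 0.026 (RPS12), -0.068 to 0.15 (RPL26L1), -0.013 to 0.047 (FAU) and -0.055 to 0.017 (RPL8). They were -0.26 to 0.55 (second row of RPL36A), -0.049 to 0.014 (RPL12), -0.046 to 0.0092 (RPS3), -0.065 to 0.018 (RPS27A), -0.035 to 0.063 (second row of RPS16), -0.0079 to 0.020 (RPL11), -0.045 to 0.093 (RPL26), -0.079 to 0.0020 (RPS15), -0.083 to 0.0099 (RPS18), -0.016 to 0.16 (LARP1) and -0.011 to 0.040 (RPL39).

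Replicate numbers are shared by the groups, but deviations of same-numbered libraries correlated across genes at 0.16, 0.14 and -0.070, so the numbers were not taken to pair them, and not every library correlated best with its own number. With the replicate number as a block, 0 genes passed, 3 members and 18 assembly genes had an unadjusted p under 0.05, and no call changed.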
